A study of Mus musculus with 32 samples.

Results

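The genes of bone morphogenetic protein (BMP) signalling were followed in the developing mouse lung through hyperoxia and blockade of miR-34a. They were the ligands Bmp2, Bmp4, Bmp5 and Bmp6, the receptor Bmpr2, the extracellular modulator Bmper, the target genes Id1 and Id3, and the inhibitory Smad gene Smad6. The members were all probes carrying one of these 9 gene names in the annotation of the array, which gave 10 of the 55681 mouse probes. Each gene had 1 probe except Bmp4, which had 2, and every probe was printed as 1 spot. The second Bmp4 probe was well above background on 0 of the 32 arrays and was not tested. The other 9 probes were well above background on all 32 arrays, so no member entered the tests through one group alone.

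BMPs are secreted dimers of the transforming growth factor-β superfamily. They bind a complex of type I receptors and a type II receptor such as BMPR2, which leads to phosphorylation of Smad1, Smad5 and Smad9, and these enter the nucleus with Smad4. Id1 and Id3, inhibitors of basic helix-loop-helix transcription factors, and Smad6, which feeds back on the receptors, are known direct targets. BMP signalling takes part in lung branching, in the specification of alveolar epithelium and in the upkeep of the pulmonary vessels, and BMPR2 is the main gene of heritable pulmonary arterial hypertension.

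Whole-lung RNA came from C57Bl/6J pups of both sexes, randomized to litters, with 1 mouse per one-colour array and 4 mice in each of 8 groups. Pups breathed 21% O2 or, from postnatal day (P)1, 85% O2, a model of bronchopulmonary dysplasia, and lungs were taken at P5 or P14. At both ages and both oxygen levels, one group had received antimiR-34a, a locked nucleic acid oligomer against that miRNA, and the other a scrambled antimiR, each at 10 mg/kg intraperitoneally on P1 and P3, so the controls were injected too. The antimiR acts on all cells it reaches, and lungs were perfused with saline before RNA isolation, as the labels describe. The haemoglobin gene Hba-a1 was still well above background on 32 of 32 arrays, with levels from 6.80 to 9.31. Anaesthetics and RNA kits are given differently in the sample labels and in the methods.

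The 8 arrays of 1 age and 1 oxygen level shared a slide and a scan, so oxygen and slide, and age and slide, cannot be told apart. The antimiR groups of a slide lay on different rows of arrays. Between 33616 and 40788 probes per array were well above background. Lung markers were present throughout: the surfactant gene Sftpc, the type I pneumocyte gene Ager, the club cell gene Scgb1a1 and the endothelial gene Pecam1 were well above background on 32 of 32 arrays. Replicate 4 of the scrambled antimiR group in 21% O2 at P5 carried skeletal muscle RNA, with a mean marker level 4.72 log2 units above the mean of that age, against -1.21 to 0.79 in the other P5 mice. In 21% O2 at P14, replicate 4 of the scrambled antimiR group and replicate 1 of the antimiR-34a group differed from their groups in array brightness. Results were repeated without these 3 arrays. In 85% O2, 3 more arrays were set apart as dimmer than the rest of their group. They were replicate 3 of antimiR-34a at P5 (75th percentile at log2 9.20 against 9.77 to 9.93) and replicates 3 and 4 of the scrambled antimiR at P14 (9.47 and 9.37 against 9.90 and 9.81). Results were repeated without these as well, an alternative chosen after seeing the data. Replicate 1 of the scrambled antimiR in 85% O2 at P5 was also dimmer than its group (9.74 against 9.98 to 10.15). It was not among these 3 and was left out only in the fits without single arrays. In the antimiR-34a group in 85% O2 at P14, replicates 2 and 4 stood apart in cell markers, replicate 2 in proliferation markers and replicate 4 in type I pneumocyte (-0.48 against 0.01 to 0.17) and airway markers (0.77 against -0.24 to 0.06). Each was left out in turn, and among the P14 comparisons that hold this group a member call changed only for Bmp4 without replicate 4 (oxygen difference under antimiR-34a 0.28, adjusted p = 0.0631, in place of 0.29).

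The antimiR was directed at the mature miRNA mmu-miR-34a-5p, at chr4:150068473-150068494 on the plus strand of GRCm38.p6 in RefSeq. It is shown to identify the molecule the treatment was aimed at. Capitals mark the seed, bases 2 to 8, which pairs with target transcripts. The miRNA itself was not measured by the probes analysed here.
mmu-miR-34a-5p: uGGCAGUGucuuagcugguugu

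RefSeq promoter windows of GRCm38.p6 matched 7 of the 9 members: Bmp4, Bmp5, Bmp6, Bmpr2, Bmper, Id3 and Smad6. The 250 bases before the start were searched on both strands for GTCT, the box bound by Smad3 and Smad4, and for GGCGNC, a GC-rich element bound by BMP-regulated Smads. GTCT was found in 6 of the 7 windows and in 82.9% of all 32851 promoter windows of that length. GGCGNC was found in 5 of the 7 and in 30.7% of all. The windows of Bmp6 and Smad6 are printed because Bmp6 was lower and Smad6 higher in 85% O2 at both ages in scrambled antimiR mice. Capitals mark the motifs. The Bmp6 window is chr13:38345466-38345715 on the plus strand and the Smad6 window chr9:64022060-64022309 on the minus strand.
Bmp6: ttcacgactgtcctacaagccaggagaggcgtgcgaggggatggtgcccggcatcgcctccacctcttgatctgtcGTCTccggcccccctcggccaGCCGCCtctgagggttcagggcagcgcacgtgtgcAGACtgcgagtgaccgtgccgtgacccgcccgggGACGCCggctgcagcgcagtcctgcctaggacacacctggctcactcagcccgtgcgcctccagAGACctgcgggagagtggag
Smad6: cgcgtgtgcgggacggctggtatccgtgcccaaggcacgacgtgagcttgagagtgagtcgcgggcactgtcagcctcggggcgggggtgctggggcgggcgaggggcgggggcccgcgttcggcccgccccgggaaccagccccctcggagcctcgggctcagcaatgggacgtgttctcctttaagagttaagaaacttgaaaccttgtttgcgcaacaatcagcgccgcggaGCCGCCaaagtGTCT
The Bmp6 window held 3 GTCT boxes, from -174 to -20 relative to the start, and 2 GGCGNC elements at -153 and -84. In the Smad6 window, the single GTCT lay at -4 and the single GGCGNC at -15. A match of letters is a description of the sequence, and no binding was measured.

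Levels are log2 signals, set relative to the 75th percentile of their own array, so a level of 1 is 2 times the signal at that percentile. Levels of different probes cannot be set against each other. Differences are on the log2 scale with the standard error (SE) of the limma fit, and a difference is called when its Benjamini-Hochberg adjusted p over all tested probes is under 0.05. In whole-lung RNA, fewer cells of a type and less RNA per cell cannot be told apart. The plot of levels by mouse shows the 9 members in the 8 groups.

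**Figure D1:**
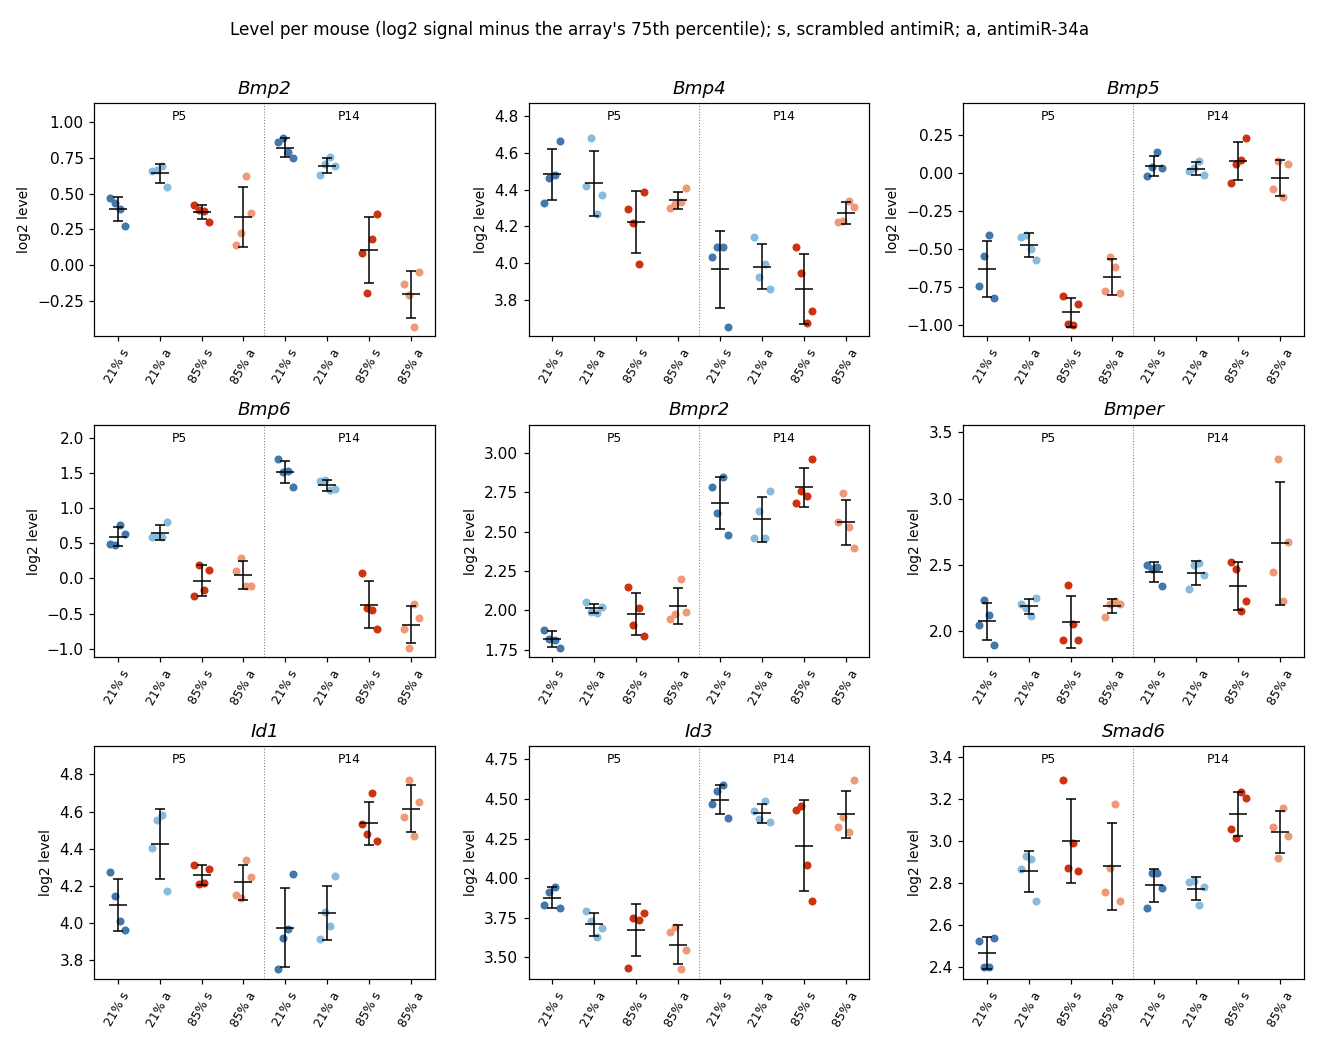
Level of each member in each mouse, as log2 signal relative to the 75th percentile of its array, in the 4 groups of P5 and the 4 groups of P14. Points are mice, and bars are the mean and SD of 4 mice. Bmp6 was lower in 85% O2 than in 21% O2 in every mouse of each age, whichever antimiR was given.

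Which BMP genes differ between hyperoxic and normal lungs was asked first in mice given the scrambled antimiR. Bmp6 was lower in 85% O2 at both ages, by 1.54-fold at P5 and by 3.70-fold at P14. Bmp2 was 1.64-fold lower at P14, while Bmp4 and Bmp5 were slightly lower at P5. On the target side the direction was mixed, since Smad6 was higher at both ages and Id1 was higher at P14, while Id3 was called lower at P14, a call that was lost without 2 dim arrays. At P5, 4 of the 9 members were called (1 higher, 3 lower), where 43.9% of all tested probes were called, 17.5% higher and 26.4% lower. At P14, 5 of 9 were called (2 higher, 3 lower), where 60.8% of all probes were, 28.4% higher and 32.4% lower. These shares of the members are near the background. Under antimiR-34a, 2 of 9 were called at P5, where 46.6% of all probes were, and 5 of 9 at P14, where 65.6% were. The median difference of the members was -0.02 at P5 and -0.10 at P14 with the scrambled antimiR, beside -0.07 and -0.06 over all probes, and -0.13 and -0.01 with antimiR-34a, beside -0.09 and -0.11.

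Bmp6, a ligand of the osteogenic BMP subgroup that also controls hepcidin and iron balance, was read by a probe at chr13:38591479-38591538 of mm9, the build of the array annotation. At P5, the 4 scrambled antimiR mice in 21% O2 had log2 levels of 0.49, 0.48, 0.76 and 0.63, and those in 85% O2 had -0.26, 0.19, -0.17 and 0.12. At P14, the levels were 1.70, 1.52, 1.53 and 1.30 in 21% O2 and 0.08, -0.42, -0.44 and -0.72 in 85% O2. Every mouse in 85% O2 lay below every mouse in 21% O2 at its age. The difference was -0.62 (SE 0.12, adjusted p = 0.000731) at P5 and -1.89 (SE 0.16, adjusted p = 3.9e-07) at P14. In mice given antimiR-34a, P5 levels ranged from 0.60 to 0.81 in 21% O2 and from -0.11 to 0.30 in 85% O2. Their P14 levels ranged from 1.25 to 1.40 in 21% O2 and from -0.99 to -0.37 in 85% O2. The oxygen difference was -0.60 (SE 0.12, adjusted p = 0.000829) at P5 and -1.98 (SE 0.16, adjusted p = 2.41e-07) at P14 under antimiR-34a. Bmp6 was therefore called in all 4 comparisons of oxygen levels, and it was called under every alternative tried.

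Bmp2, a ligand required for heart and bone formation, was read at chr2:133388260-133388319 of mm9. In scrambled antimiR mice at P5, levels of 0.47, 0.43, 0.39 and 0.27 in 21% O2 overlapped with 0.42, 0.38, 0.38 and 0.30 in 85% O2. At P14, levels of 0.86, 0.89, 0.79 and 0.75 in 21% O2 all lay above the 0.08, -0.20, 0.18 and 0.36 of 85% O2. The difference was -0.02 (95% interval -0.21 to 0.17) at P5 and -0.72 (SE 0.11, adjusted p = 6.36e-05) at P14. Under antimiR-34a, Bmp2 was called lower in 85% O2 at P5 (-0.30, SE 0.09, adjusted p = 0.011) and at P14 (-0.90, SE 0.11, adjusted p = 7.7e-06). The P5 groups overlapped, with 1 mouse in 85% O2 at 0.62 and the lowest mouse in 21% O2 at 0.55.

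Bmp4, a ligand of the distal lung bud and of lung mesenchyme, was read at chr14:47003391-47003450 of mm9. At P5 the scrambled antimiR mice had levels of 4.33, 4.46, 4.48 and 4.66 in 21% O2 and 4.30, 4.22, 4.00 and 4.39 in 85% O2, which overlapped. The difference of -0.26 (SE 0.10) had an adjusted p of 0.0493. Without the array that carried skeletal muscle RNA it was -0.20 (adjusted p = 0.141), and the call was also lost without any one of replicates 2 and 3 of 21% O2 or 1, 2 and 3 of 85% O2, with adjusted p between 0.0504 and 0.16, and without the dim array of antimiR-34a (adjusted p = 0.0537). At P14 the difference was -0.11 (adjusted p = 0.43), and it reached -0.28 (adjusted p = 0.0408) after quantile normalization. Under antimiR-34a at P14 the Bmp4 difference pointed the other way, 0.29 (adjusted p = 0.0331), but quantile normalization reduced it to 0.10 (adjusted p = 0.447). That call was lost too without any one of replicates 3 and 4 of 85% O2 or 2, 3 and 4 of 21% O2, with adjusted p between 0.0564 and 0.0897.

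Bmp5, a ligand of the same subgroup as Bmp6, was read at chr9:75746444-75746503 of mm9. In scrambled antimiR mice at P5 its levels were -0.74, -0.55, -0.41 and -0.82 in 21% O2 and -0.81, -0.99, -1.0 and -0.86 in 85% O2. Only replicate 4 of 21% O2, the array with skeletal muscle RNA, fell within the range of the 85% O2 mice. The difference was -0.29 (SE 0.09, adjusted p = 0.0197), and -0.35 (adjusted p = 0.00764) without that array. It was not called without any one of 4 other arrays, replicates 2 and 3 of either oxygen level, with adjusted p between 0.0548 and 0.0662. Under antimiR-34a at P5 it was -0.21 (adjusted p = 0.0702), and -0.25 (adjusted p = 0.0479) without replicate 2 of 85% O2. At P14 the difference with the scrambled antimiR was 0.03 (95% interval -0.13 to 0.19).

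Bmpr2, the type II receptor of BMPs (chr1:59927276-59927335 of mm9), was not called for oxygen at either age. Its difference in scrambled antimiR mice was 0.16 (adjusted p = 0.0881) at P5 and 0.10 (adjusted p = 0.426) at P14. Without replicate 4 of 85% O2, the P5 difference was 0.21 (adjusted p = 0.0405). Bmper, which binds BMPs outside the cell and can inhibit or promote their signalling (chr9:23289301-23289360 of mm9), differed by -0.01 (95% interval -0.20 to 0.19) at P5 and by -0.10 (95% interval -0.47 to 0.27) at P14. At P14, 1 mouse given antimiR-34a in 85% O2 had a Bmper level of 3.30, above the 2.23 to 2.67 of its group. This was replicate 2, whose mean level of proliferation markers was -0.91, against -0.09 to 0.14 in its group. Without it, the oxygen difference of Bmper under antimiR-34a was 0.0097 in place of 0.22, and the antimiR difference in 85% O2 was 0.11 in place of 0.32, none of them called.

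Smad6, the inhibitory Smad that blocks BMP receptor signalling, was read at chr9:63800980-63801039 of mm9. In scrambled antimiR mice at P5, levels of 2.53, 2.40, 2.40 and 2.54 in 21% O2 all lay below the 3.29, 2.87, 2.99 and 2.86 of 85% O2. At P14 the groups were again apart, with 2.68, 2.85, 2.85 and 2.78 in 21% O2 and 3.06, 3.02, 3.23 and 3.21 in 85% O2. Smad6 was thus higher in 85% O2 at both ages, by 0.54 (SE 0.11, adjusted p = 0.00133) at P5 and by 0.34 (SE 0.07, adjusted p = 0.00109) at P14. These calls were kept under every alternative except a threshold of 1.5-fold, which neither passed. Under antimiR-34a at P5 the oxygen difference was 0.02 (95% interval -0.21 to 0.26). The difference between the antimiRs in the oxygen effect was -0.51 (SE 0.15) with an adjusted p of 0.265, so it was not shown to differ. At P14 under antimiR-34a, Smad6 was 0.27 higher in 85% O2 (adjusted p = 0.00472), and 0.12 (adjusted p = 0.221) after quantile normalization.

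Id1 is a target that BMP ligands induce strongly in endothelial cells, and its probe lay at chr2:152563083-152563142 of mm9. At P14, levels of 3.75, 3.92, 3.97 and 4.26 in 21% O2 all lay below the 4.53, 4.48, 4.70 and 4.44 of 85% O2 in scrambled antimiR mice. The difference was 0.56 (SE 0.11, adjusted p = 0.000618), and under antimiR-34a it was 0.56 (SE 0.11, adjusted p = 0.000533). At P5, Id1 was not called with either antimiR, with differences of 0.16 (adjusted p = 0.175) with the scrambled antimiR and -0.21 (adjusted p = 0.0784) with antimiR-34a. The latter was called at -0.23 (adjusted p = 0.0469) after quantile normalization and at -0.29 (adjusted p = 0.0127) without replicate 4 of 21% O2, and also without replicate 3 of 85% O2, the dim array (-0.25, adjusted p = 0.0489).

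Id3, a close relative of Id1, was read by a probe whose position is given as unmapped in the array annotation. In scrambled antimiR mice its P14 levels were 4.47, 4.55, 4.59 and 4.38 in 21% O2 and 4.43, 4.46, 4.08 and 3.86 in 85% O2. Replicates 3 and 4 of 85% O2, the dim arrays of their group, lay below all other mice. The difference was -0.29 (SE 0.12) with an adjusted p of 0.0499, and it was -0.17 (adjusted p = 0.166) without replicate 4 of 85% O2. It was not called either without replicate 3 of 85% O2 or any one of replicates 1, 2 and 3 of 21% O2, with adjusted p between 0.0754 and 0.122, or without the 2 arrays of 21% O2 that stood apart (-0.33, adjusted p = 0.0553). After quantile normalization it was larger, -0.49 (adjusted p = 0.00222), and without both dim arrays of 85% O2 it was -0.05 (adjusted p = 0.653). Under antimiR-34a at P14 the Id3 difference was -0.01 (95% interval -0.27 to 0.25). In scrambled antimiR mice at P5 the Id3 difference was -0.20 (SE 0.08, adjusted p = 0.0627), with no overlap between the oxygen levels. It was called after quantile normalization (-0.26, adjusted p = 0.0223) and without the dim array of antimiR-34a, which enters through the shared spread (-0.20, adjusted p = 0.0466). Under antimiR-34a at P5 the Id3 levels, 3.63 to 3.79 in 21% O2 and 3.42 to 3.69 in 85% O2, overlapped.

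**Figure D2:**
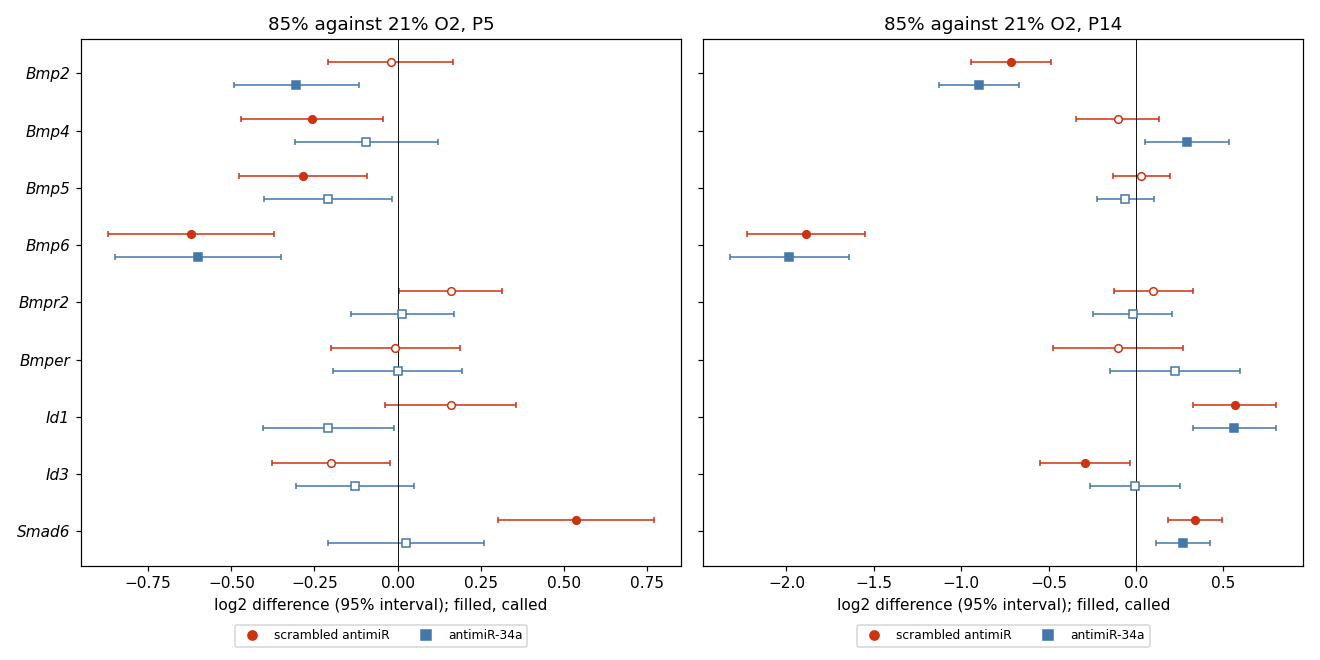
Difference between 85% and 21% O2 for each member, on the log2 scale with its 95% interval, at P5 and P14, with the scrambled antimiR (circles) and antimiR-34a (squares). Filled symbols were called. Bmp6 lies furthest to the left in all 4 comparisons, down to -1.98, and Smad6 and Id1 lie to the right at P14 with both antimiRs.

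Markers of other cells of the lung were compared between the oxygen levels as well. Over all probes, 17.5% were called higher and 26.4% lower at P5, and 28.4% and 32.4% at P14. The marker counts below stand beside these shares. Bmpr2, Id1 and Smad6 are abundant in endothelium. Of the 10 endothelial markers, 2 were higher and 4 lower at P5, and 4 were higher and 3 lower at P14, counts that lie near these shares and go both ways. Their mean level per mouse, relative to the mice of the same age, ranged at P14 from 0.09 to 0.14 in 21% O2 and from -0.11 to -0.02 in 85% O2. The median difference of the endothelial markers was -0.12 at P5 and 0.08 at P14, so at P14 it pointed the other way from the mean level. Of the 8 markers of PDGFRA+ myofibroblasts, 6 were lower at each age and 1 was higher at P14, and their mean level ranged at P14 from 0.42 to 0.47 in 21% O2 and from -0.46 to -0.39 in 85% O2. All 5 macrophage markers on the array under the listed names were higher at P5 and 4 of 5 at P14, with a P14 mean level of -0.56 to -0.38 in 21% O2 and 0.37 to 0.86 in 85% O2. Every marker of these 3 lists was above background on 32 of 32 arrays. At P5, 7 of 7 proliferation markers tested were lower, and the list had a mean level of 0.46 to 0.78 in 21% O2 and -0.75 to -0.46 in 85% O2. Mean levels take in every listed gene on the array, here also Aurkb, which was not tested. Aurkb was above background on 6 of 32 arrays and on none of 85% O2 at P5 with the scrambled antimiR, with means of -5.41 in 21% O2 and -8.09 in 85% O2. At P5, 7 of 9 type I pneumocyte markers were higher and 1 lower, with mean levels of -0.39 to -0.15 and 0.10 to 0.17. At P14, 4 of 7 heart muscle markers were lower, with 0.37 to 1.28 in 21% O2 and -1.31 to -0.05 in 85% O2, and the thymus markers stood at 0.35 to 0.91 and -1.34 to -0.62. Of the 6 thymus markers, Ptcra, Rag1 and Rag2 were above background on no array of 85% O2, so their values there lie below background and they passed the filter through brighter groups. Of the other 3, Cd8b1 and Dntt were lower and Cd3e differed by -0.16 (adjusted p = 0.438). Red blood cell markers were lower for 4 of 7 at P14, among them Epb4.2 with no array of 85% O2 above background, with overlapping ranges of -0.33 to 1.31 and -1.57 to -0.13. Mean levels of further lists did not overlap at P14. They were 0.11 to 0.24 in 21% O2 and -0.29 to -0.19 in 85% O2 for lipofibroblasts and matrix fibroblasts (5 of 8 markers lower, 1 higher), and 0.13 to 0.18 against -0.36 to -0.08 for pericytes (4 of 8 lower, 1 higher). Type II pneumocyte markers, of which 6 of 9 were lower and 2 higher, lay at 0.14 to 0.18 and at -0.20 to 0.0044. Skeletal muscle markers, 4 of 7 tested lower, lay at 0.18 to 1.56 and at -0.79 to -0.30. Their mean levels include Myh4, which was not tested and was above background on 2 of 32 arrays. Smooth muscle markers, 3 of 8 higher and 0 lower, lay at -0.16 to -0.09 and at 0.03 to 0.30. At P5 the smooth muscle order was the opposite, with 6 of 8 markers lower and mean levels of 0.02 to 0.53 in 21% O2 and -0.35 to -0.17 in 85% O2. Pericyte markers at P5 lay at 0.01 to 0.09 and at -0.26 to -0.0055, with 3 of 8 lower and 2 higher. Lipofibroblast and matrix fibroblast markers at P5, 4 of 8 lower and 1 higher, were apart by a narrow margin, at -0.041 to 0.39 and -0.25 to -0.043. So were skeletal muscle markers at P5, 3 of 7 lower, at -0.304 to 4.72 and -1.21 to -0.315. Heart muscle markers at P5, 6 of 7 lower, overlapped, at -0.15 to 1.84 and -1.50 to 0.14. Type I pneumocyte and proliferation markers also lay apart at P14, with the same order as at P5. The part of these cells in the differences of the BMP genes was not tested.

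The other genes of the pathway were followed in scrambled antimiR mice through 56 genes in 5 lists by role. At P5, 48 were tested, of which 13 were higher and 11 lower in 85% O2, and at P14, 51 were tested, with 19 higher and 19 lower. Over all probes the shares were 17.5% higher and 26.4% lower at P5, and 28.4% and 32.4% at P14, and the counts by list below stand beside these shares. The median difference of the tested genes was -0.04 at P5 and 0.08 at P14. Gdf6 at both ages and Hfe2 and Sost at P14 were above background in 1 of the compared groups and on no array of the other, so they were tested through their bright group. Without them, 12 of 47 were higher and 11 lower at P5, and 18 of 48 higher and 17 lower at P14. The genes named below were called at both ages and were among the largest of their list.

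Of all 35279 probes tested at both ages, 28.8% were called at both, and 86.6% of those kept their direction. Among the 9 other ligands tested, 3 were called at both ages, each in a constant direction, and 1 of them was Gdf6, which had only a bound. Bmp7, a ligand of epithelia and kidney, was 0.85 higher (SE 0.16, adjusted p = 0.000781) at P5 and 1.40 higher (SE 0.15, adjusted p = 2.81e-06) at P14, while Bmp6, of the same subgroup, was lower. Bmp8a was lower, by -0.60 and -0.84 (adjusted p = 0.000143 and 0.00205). The methods' Welch test did not call Bmp7 at P5 (adjusted p = 0.0761) or Bmp8a at P14 (adjusted p = 0.0528). Gdf6, a ligand of joints and the eye, was not well above background on any array of the 21% O2 groups but on all 4 arrays of the scrambled antimiR group in 85% O2 at each age. It was at least 1.87-fold higher in 85% O2 at P5 and at least 7.49-fold higher at P14, taking each array of 21% O2 at no less than its faintest probe above background. Gdf6 was tested only because of the group where it was bright, so its calls are no support for a difference. The Gdf6 value at P5 was small under normexp background correction, 0.20 (adjusted p = 0.0875).

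Of the 14 extracellular antagonists and modulators tested at both ages, 7 were called at both, and 5 of these kept their direction. Fst encodes follistatin, which traps activins and some BMPs. It was 0.60 higher at P5 (SE 0.19, adjusted p = 0.0192) and 3.08 higher at P14 (SE 0.40, adjusted p = 1.92e-05). Its P14 levels lay between -1.56 and -1.27 in 21% O2 and between 1.56 and 1.79 in 85% O2. The P5 difference was 0.44 (adjusted p = 0.0634) without replicate 3 of 21% O2 and 0.55 (adjusted p = 0.0553) without replicate 2 of 85% O2, and the methods' Welch test gave an adjusted p of 0.108. Fstl3, a relative of follistatin, was 0.78 and 1.15 higher (adjusted p = 8.91e-07 and 6.89e-05), and Dand5, a secreted antagonist with a cystine knot, was 0.36 and 0.45 higher (adjusted p = 0.00419 and 0.000328).

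Of the 9 other receptors and 10 transducers tested at both ages, 2 of each were called at both, all higher in 85% O2. Eng encodes endoglin, the endothelial co-receptor of BMP9. It was 0.70 higher at P5 (SE 0.07, adjusted p = 3.8e-06) and 0.47 higher at P14 (SE 0.09, adjusted p = 0.000647). Acvr1, a type I receptor, differed by 0.16 at P5 (adjusted p = 0.0239) and 0.34 at P14 (adjusted p = 0.000497). The P5 call was lost without the array with skeletal muscle RNA (0.13, adjusted p = 0.0688), without replicate 1 of 85% O2 (adjusted p = 0.0607) and without replicate 3 (adjusted p = 0.0501). It was also lost after quantile normalization (0.11, adjusted p = 0.115) and with the authors' values (0.11, adjusted p = 0.114). The same held without a filter on dim probes (adjusted p = 0.0534) and in a fit of only the groups compared (adjusted p = 0.074). Tob1, which dampens BMP-activated Smads, was 0.76 and 0.65 higher (adjusted p = 7.2e-05 and 3.96e-05), and Skil, a Smad corepressor, 0.37 and 0.78 higher (adjusted p = 0.002 and 3.84e-06).

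Of the 6 other target genes, 5 were called lower at P5, where 26.4% of all probes were, and at P14 4 were lower and 1 higher, where 32.4% and 28.4% of all probes were. Id2 was lower by -0.48 (SE 0.07, adjusted p = 0.000113) and -0.50 (SE 0.07, adjusted p = 5.22e-05), and Atoh8, a target in endothelium, by -0.43 and -0.49 (adjusted p = 0.0106 and 0.0012, with 0.0988 at P5 by the methods' Welch test). Msx2, a homeobox target, was lower by -0.59 (adjusted p = 0.0012) at P5 and by -0.44 (adjusted p = 0.00817) at P14, but the P14 value was 0.048 (adjusted p = 0.759) under normexp background correction, -0.12 (adjusted p = 0.616) after quantile normalization and -0.28 (adjusted p = 0.122) without the dim arrays. Id4 was lower at P5 (-0.39, adjusted p = 0.00248) and higher at P14 (0.56, adjusted p = 0.00887).

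**Figure D3:**
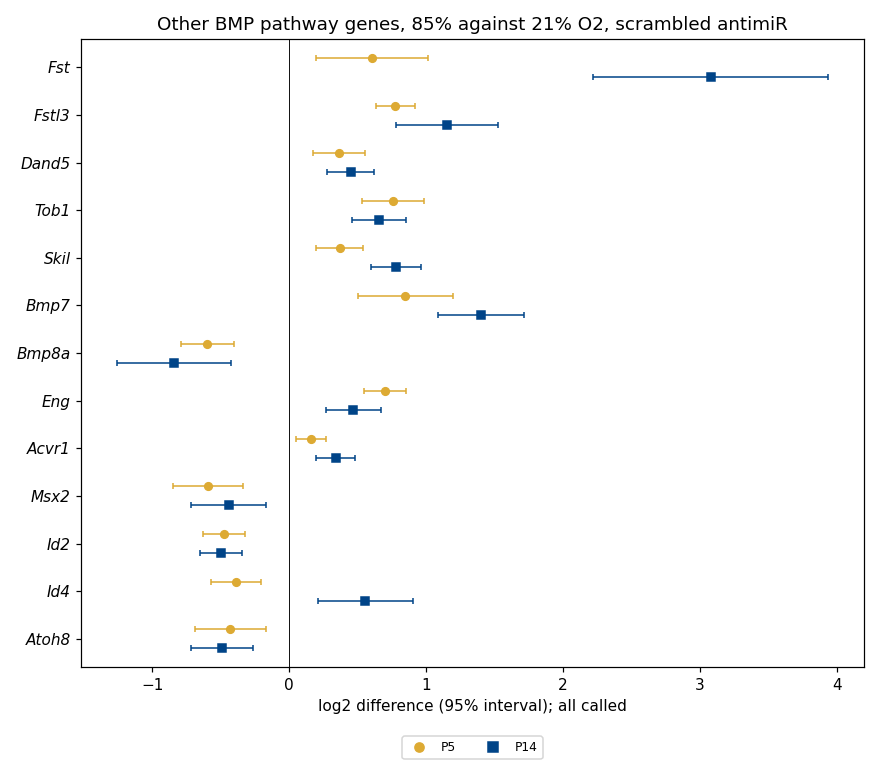
Difference between 85% and 21% O2 in scrambled antimiR mice at P5 (circles) and P14 (squares) for pathway genes outside the 9 members that are named in the text, on the log2 scale with 95% intervals. Gdf6 is left out because it has only a bound. Fst reaches 3.08 at P14, and Id4 lies on opposite sides of 0 at the 2 ages.

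Age was compared next, within scrambled antimiR mice and in the fit of all 32 arrays. The mice at P5 and P14 were different animals on different slides, so age and slide cannot be told apart. In 21% O2, 8 of 9 members were called, 7 higher at P14 and 1 lower, where 51.4% of all probes were called, 27.8% higher and 23.5% lower. Bmp6 was 0.92 higher at P14 (SE 0.14, adjusted p = 6.87e-06), Bmpr2 was 0.87 higher (SE 0.09, adjusted p = 1.66e-08), Bmp5 was 0.68 higher (SE 0.08, adjusted p = 2.19e-07), and Id3 was 0.62 higher (SE 0.10, adjusted p = 2.03e-05). Smaller rises were those of Bmp2 (0.43), Bmper (0.37, adjusted p = 0.0294) and Smad6 (0.32). Without the array with skeletal muscle RNA, Bmper was at 0.31 (adjusted p = 0.092), and it was not called without any one of replicate 1 of P5 and replicates 1, 2 and 3 of P14, with adjusted p between 0.0555 and 0.0613. Bmp4 was lower, with a difference of -0.52 (SE 0.11, adjusted p = 0.000247). Id1 differed by -0.12 (adjusted p = 0.322), and by -0.26 (adjusted p = 0.0425) without the 3 arrays that stood apart.

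In 85% O2, 6 of 9 members were called for age, 4 higher and 2 lower, where 42.2% of all probes were, 26% higher and 16.2% lower. Bmp5 (0.99, adjusted p = 8.19e-10), Bmpr2 (0.81, adjusted p = 8.92e-08), Id3 (0.53, adjusted p = 0.000175) and Id1 (0.28, adjusted p = 0.0288) were higher at P14. Bmp4 (-0.36, adjusted p = 0.00728) and Bmp2 (-0.26, adjusted p = 0.0307) were lower. Bmp6 differed by -0.34 (adjusted p = 0.0513), whereas it was higher at P14 in 21% O2. It was called after quantile normalization (-0.35, adjusted p = 0.046), and without replicate 1 of P14 (-0.50, adjusted p = 0.00401), replicate 1 of P5 (adjusted p = 0.0272) or replicate 3 of P5 (adjusted p = 0.0464). The Id1 value was 0.10 (adjusted p = 0.475) after quantile normalization, and it was not called without replicate 3 of P14 (adjusted p = 0.105) or replicates 2 or 3 of P5 (adjusted p = 0.0663 and 0.0647). The Bmp2 value was -0.16 (adjusted p = 0.171) without replicate 2 of P14, and the call was lost without replicate 1 of P14 or any one of replicates 1, 2 and 3 of P5, with adjusted p between 0.0567 and 0.0657. Smad6, at 0.13 (adjusted p = 0.284), was called without replicate 1 of P5 (0.22, adjusted p = 0.0449). Without the dim arrays, Bmp4 was at -0.21 (adjusted p = 0.216) and Id1 at 0.25 (adjusted p = 0.135).

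Whether the oxygen effect itself differed between P5 and P14 was tested as an interaction, and 4 of 9 members were called, where 40.8% of all probes were. The oxygen difference of Bmp6 was further down at P14 (-1.27, SE 0.20, adjusted p = 2.36e-05), and so was that of Bmp2 (-0.70, SE 0.14, adjusted p = 0.00028). Put by age, Bmp6 and Bmp2 were higher at P14 than at P5 in 21% O2, and at no mouse of 85% O2 at P14 did either reach the lowest P14 level of 21% O2. The interaction was positive for Id1 (0.40, SE 0.14, adjusted p = 0.0271) and for Bmp5 (0.31, SE 0.12, adjusted p = 0.0311). These last 2 were not called after quantile normalization (Id1 0.24, adjusted p = 0.183, and Bmp5 0.25, adjusted p = 0.0828). Without the dim arrays of 85% O2, Id1 was at 0.37 (adjusted p = 0.0778) and Bmp5 at 0.23 (adjusted p = 0.162). Leaving out replicate 1 of 21% O2 at P14 also ended both calls (adjusted p = 0.0723 for Id1 and 0.0603 for Bmp5). The Id1 call was also lost without replicate 1 of 21% O2 at P5 or replicate 3 of 85% O2 at P14, and the Bmp5 call without any one of replicates 2 and 3 of either oxygen level at P5 or replicate 4 of 85% O2 at P14, with adjusted p between 0.0625 and 0.0857.

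**Figure D4:**
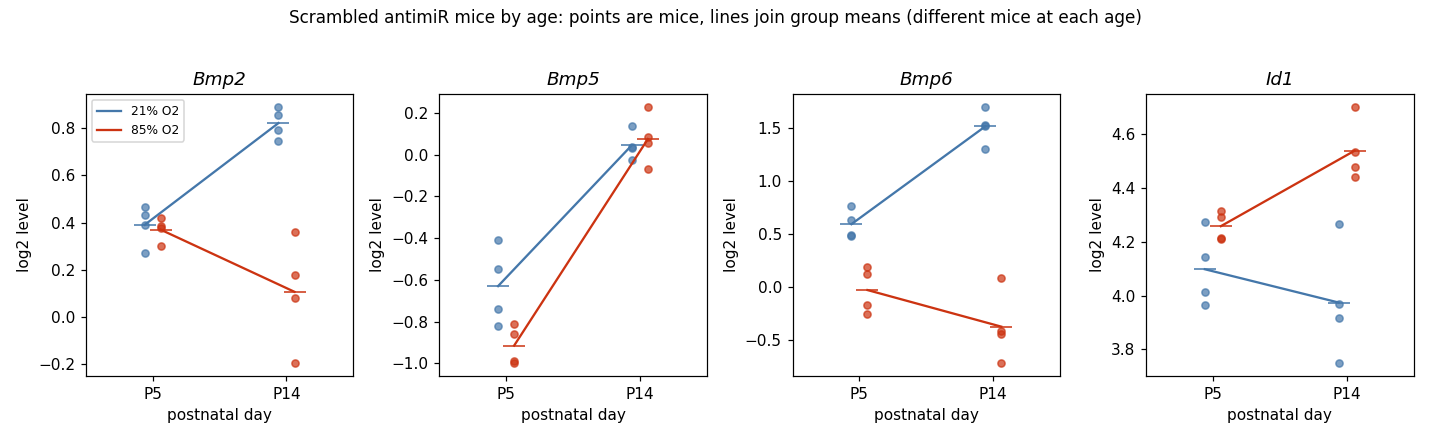
Levels of Bmp2, Bmp5, Bmp6 and Id1 in scrambled antimiR mice at P5 and P14, as log2 signal relative to the 75th percentile of its array. Points are single mice and lines join the means of 4 different mice at each age. The line of Bmp6 rises by 0.92 in 21% O2 and differs by -0.34 in 85% O2.

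Whether blocking miR-34a moves these genes was asked at each age and oxygen level. With limma, 0 of 9 members were called in 85% O2 at P5, where 0.0639% of all probes were called, and 0 of 9 in 85% O2 at P14, where 2.66% were. In 21% O2, 0 of 9 were called at P5 and at P14, where 0.136% and 0% of all probes were. At an unadjusted p under 0.05 the members were 1 and 2 in 85% O2 and 4 and 0 in 21% O2, at P5 and P14 respectively. Over all probes, the counts at that threshold in 85% O2 were 4685 of 35984 at P5 and 6414 of 38458 at P14. In 21% O2 they were 6266 of 35984 and 4054 of 38458. The methods' Welch test with Benjamini-Hochberg adjustment called 0 in each. The largest difference was 0.41 on the log2 scale, and the plot of antimiR differences shows their intervals.

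Bmp4 in 85% O2 at P14 came closest to a call. Its levels were 4.09, 3.95, 3.67 and 3.74 with the scrambled antimiR and 4.22, 4.23, 4.34 and 4.30 with antimiR-34a, without overlap. The difference was 0.41 (SE 0.11, adjusted p = 0.069), on a slide that held both groups. Without the 2 arrays of 21% O2 at P14 that stood apart in brightness, which enter through the shared spread, the adjusted p was 0.0286, and without replicate 1 of the scrambled antimiR the difference was 0.49 (adjusted p = 0.0432). The lowest Bmp4 levels, 3.67 and 3.74, were those of the 2 dim arrays, and without both the difference was 0.26 (adjusted p = 0.365). The interaction with oxygen was 0.40 (SE 0.16, adjusted p = 0.278), 0.55 (adjusted p = 0.0133) without the 2 arrays of 21% O2, and 0.24 (adjusted p = 0.539) without the 2 dim arrays of 85% O2. In 21% O2 at P14 the antimiR difference of Bmp4 was 0.02 (95% interval -0.22 to 0.25). Bmp2 in 85% O2 at P14 differed by -0.31 (SE 0.11, adjusted p = 0.15), with mice at 0.08, -0.20, 0.18 and 0.36 with the scrambled antimiR and at -0.13, -0.21, -0.43 and -0.05 with antimiR-34a. The highest Bmp2 levels, 0.18 and 0.36, were those of the 2 dim arrays, and without both the difference was -0.15 (adjusted p = 0.594).

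In 85% O2 at P5, Bmp5 was the member with the largest difference, 0.23 (SE 0.09, adjusted p = 0.313). Its levels were -0.81, -0.99, -1.0 and -0.86 with the scrambled antimiR and -0.78, -0.55, -0.62 and -0.79 with antimiR-34a, which were apart by a narrow margin. In 21% O2 at P5, Smad6 differed by 0.39 (SE 0.11, adjusted p = 0.134), Id1 by 0.33 (SE 0.09, adjusted p = 0.134), Bmp2 by 0.25 (SE 0.09, adjusted p = 0.191) and Bmpr2 by 0.20 (SE 0.07, adjusted p = 0.213). The Smad6 levels with antimiR-34a, 2.87, 2.93, 2.91 and 2.72, all lay above those with the scrambled antimiR and overlapped with both 85% O2 groups. None of these passed the threshold. The interactions of antimiR with oxygen were called for 0 of 9 members at P5 and 0 of 9 at P14, where 0.0556% and 0.0884% of all probes were called. At an unadjusted p under 0.05 they were 3 at P5 (Bmp2, Id1 and Smad6) and 1 at P14 (Bmp4), where 3910 of 35984 and 5765 of 38458 probes were.

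**Figure D5:**
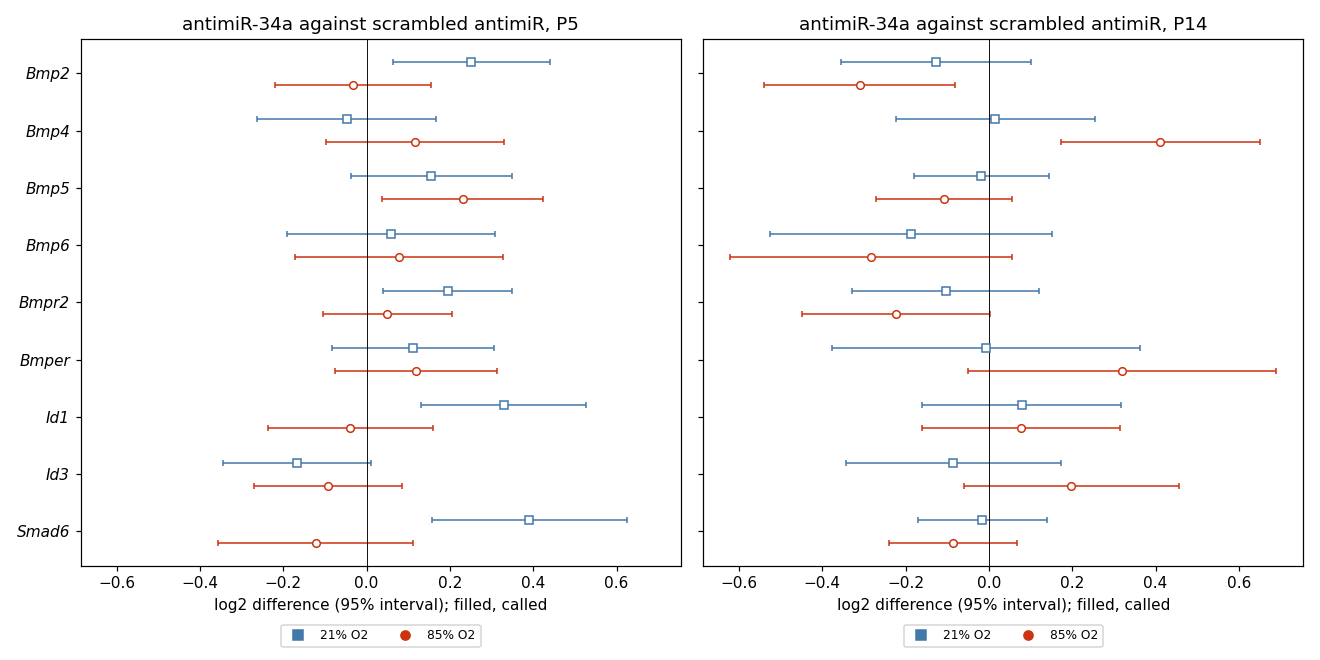
Difference between antimiR-34a and scrambled antimiR for each member at P5 and P14, on the log2 scale with its 95% interval, in 21% O2 (squares) and 85% O2 (circles). Every symbol is open because none was called. The intervals that lie apart from 0 are those of Bmp5 in 85% O2 and of Bmp2, Bmpr2, Id1 and Smad6 in 21% O2 at P5, and of Bmp2 and Bmp4 in 85% O2 at P14.

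Among the 56 other pathway genes, 1 was called in the comparisons of the antimiRs, in 85% O2 at P14, where 51 were tested and 2.66% of all probes were called. This was Hey1, a transcriptional repressor downstream of Notch and BMP signals, which was named after its values were seen. Its levels at P14 in 85% O2 were 2.01, 1.76, 1.86 and 1.91 with the scrambled antimiR and 2.17, 2.31, 2.52 and 2.24 with antimiR-34a, without overlap. The difference was 0.43 (SE 0.08, adjusted p = 0.0195), against an oxygen difference of -1.66 (adjusted p = 4.24e-09) in scrambled antimiR mice at P14. Hey1 was not called by a fit of the 8 arrays of that slide alone (adjusted p = 0.158), by the methods' Welch test (adjusted p = 0.292) or without replicate 2 of the scrambled antimiR (0.39, adjusted p = 0.0597) or without the dim arrays (0.42, adjusted p = 0.101).

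The genes whose levels over the 32 arrays were most like those of each member were sought among 17018 other named genes, as a description with Pearson's r. The arrays share slides with oxygen and age, so genes that differ with either resemble each other. Bmp6 was most like Hpgd, which encodes a prostaglandin-degrading enzyme (r = 0.976), Havcr1 (r = 0.976) and Anp32a (r = 0.975). Bmp2 was most like Acoxl (r = 0.942), Adcy8 (r = 0.926) and the Wnt effector Lef1 (r = 0.910). For Bmpr2 they were Ehd4 (r = 0.948), the endothelial BMP type I receptor gene Acvrl1 (r = 0.946) and Fkbp1a, whose product binds type I receptors (r = 0.938). Bmp5 was most like AA414768 (r = 0.954), the myelin gene Pmp22 (r = 0.952) and Slc4a9 (r = 0.948), and Id3 like Mxra7 (r = 0.948), Arhgap23 (r = 0.933) and the MHC class II gene H2-Aa (r = 0.929). Lower values were found for Bmp4 (Ubac1, r = 0.847, Deaf1, r = 0.835, and Trmt112, r = 0.833), Bmper (Hmga2-ps1, r = 0.887, Tfpi2, r = 0.867, and 4930486L24Rik, r = 0.833), Id1 (Ppp1r15a, r = 0.882, Rpl24, r = 0.875, and Cd44, r = 0.861) and Smad6 (Tm9sf2, r = 0.833, Rapgef3, r = 0.827, and Nbeal1, r = 0.808). With the group means taken out, the strongest relations among members over the 32 mice were negative for Id3 and Smad6 (r = -0.581), positive for Bmp6 and Id3 (r = 0.541) and negative for Bmp6 and Id1 (r = -0.491). Dim arrays of 85% O2 had the lowest Id3 and the highest Smad6 of their groups. At P14, scrambled antimiR replicates 3 and 4 had Id3 at 4.08 and 3.86 and Smad6 at 3.23 and 3.21. At P5, replicate 3 of antimiR-34a had 3.42 and 3.18, and replicate 1 of the scrambled antimiR 3.43 and 3.29. The part of array brightness in these relations was not tested.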

How the data were processed

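Whole-lung RNA of 32 mice was hybridised to one-colour Agilent mouse arrays. The deposited scanner files, made by the authors with Agilent Feature Extraction 10.7.3.1, hold spot intensity on a linear scale, background-subtracted but not normalized between arrays. The series table deposited by the authors holds log2 values of the same arrays, whose normalization is not given in the sources used here, and served as an alternative.

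Each array's processed signals were put on the log2 scale and set relative to their 75th percentile, leaving out control and outlier spots. A probe was tested if every array of at least 1 group in the fit had it well above background, which left 35984 probes at P5, 38458 at P14 and 39163 over both ages. Comparisons used limma 3.58.1 in R 4.3.3 with 1 mean per group, over the 16 arrays of an age or all 32, and p-values adjusted by Benjamini and Hochberg across every tested probe, with a threshold of 0.05. The scripts were tested on simulated data.

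The brightest probe of a gene was used. Pathway genes were named if called for oxygen in scrambled antimiR mice at both ages, up to 4 per list by mean absolute change, and 1 gene that met this rule is not reported here. The members and lists were chosen with earlier results of these data known. The array number limits the precision. The limma p-values rest on the spread between mice within groups, as 1 estimate per probe shared by all groups of a fit. They do not measure differences between slides or rows of arrays. Alternatives were normexp (offset 50), quantile normalization, the authors' values, other filters on dim probes, only the arrays of the groups compared, the methods' Welch test, a replicate block, the mean over a gene's probes, a 1.5-fold threshold, and leaving out arrays singly, those that stood apart or, chosen after seeing the data, the dim ones of 85% O2.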

Additional observations from a re-analysis of the deposited data

Results flagged for a closer look

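The oxygen effect in scrambled antimiR mice differed between P5 and P14, by the test of the interaction itself, for Bmp6 (-1.27), Bmp2 (-0.70), Id1 (0.40) and Bmp5 (0.31). Oxygen and age cannot be told apart from slide in these values.

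Single mice stood far from the other 3 of their group by Dixon's test in 4 of 72 combinations of member and group, where chance gives about 1 in 20. Bmp4 was at 3.66 in replicate 4 of the scrambled antimiR group in 21% O2 at P14, an array that stood apart in brightness, against 4.04 to 4.09 in the others. Bmp6 was at 0.81 in replicate 4 of antimiR-34a in 21% O2 at P5. Bmpr2 was at 2.20 in replicate 3 of antimiR-34a in 85% O2 at P5, the dimmest array (75th percentile at log2 9.20). Id3 was at 3.43 in replicate 1 of the scrambled antimiR in 85% O2 at P5, also dimmer than its group (9.74 against 9.98 to 10.15).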

How the results depend on the processing

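Among the differences called for the 9 members, 604 of 708 repeats under another setting kept direction and call, and 104 kept the direction only. Of the other pathway genes named, 580 of 618 kept both, 37 kept the direction only, and 1 turned, Msx2 for oxygen at P14 in scrambled antimiR mice, at 0.048 (adjusted p = 0.759) under normexp.

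The number of members called for oxygen in scrambled antimiR mice at P5, 4, was 2 in a fit of only the groups compared, 2 with the methods' Welch test and 1 with the 1.5-fold threshold, and from 2 (without replicate 2 of 21% O2) to 5 (without replicate 4 of 85% O2) leaving out single arrays. At P14, 5 became 2 with the fold threshold, 4 with the Welch test, 6 after quantile normalization and with the authors' values, where Bmp4 was added, and 4 to 5 leaving out arrays. Under antimiR-34a, 2 at P5 became 1 with the Welch test and 1 with the fold threshold, and 2 to 3 leaving out arrays. At P14, 5 became 3 after quantile normalization, 3 with the authors' values, 2 with the fold threshold, and 4 to 5 leaving out arrays. For antimiR-34a in 85% O2 at P14, 0 became 1, Bmp4, without the arrays that stood apart, and 0 to 1 leaving out arrays. The interaction with oxygen at P14 went from 0 to 1 without the arrays that stood apart. For the interaction of oxygen with age, 4 became 2 under normexp, quantile normalization, the authors' values, the fold threshold and without the dim arrays of 85% O2, and 2 to 4 leaving out arrays. For age in 21% O2, 8 became 4 with the fold threshold and 7 to 8 leaving out arrays, and in 85% O2, 6 became 3 with the Welch test, 2 with the fold threshold and 4 to 7 leaving out arrays. Beyond the settings named, the cause of these changes was not tested.

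Mice of the same replicate number did not deviate together in every pair (correlations from -0.354 to 0.499), so the numbers are not taken as pairs. With a replicate block, the members called for oxygen in scrambled antimiR mice at P14 were 4 in place of 5, since Id3 had an adjusted p of 0.0696, and the counts of the other comparisons were the same. Slide as a block could not be fitted for oxygen or age, because each slide held 1 age and 1 oxygen level, and was not run. The median over all probes for oxygen at P14 in scrambled antimiR mice was -0.06, and 0.11 under normexp.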
